A study of Homo sapiens with 12 samples.

Results

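Copper handling in the cytosol and at the cell's membranes was followed through 10 genes, taken by symbol from the 20332 genes of the expression table: SLC31A1, SLC31A2, ATP7A, ATP7B, ATOX1, CCS, SOD1, CUTC, COMMD1 and CP. They were measured by bulk RNA sequencing in Ishikawa and KLE cells, established human endometrial cancer lines. The 4 groups were Ishikawa cells in 200 µM CuCl2 for 24 h, untreated Ishikawa cells, KLE cells in 200 µM CuCl2 for 24 h and untreated KLE cells. Each group held 3 libraries, called biological replicates in the labels, which makes 12 in all. The control cells bear the words untreated and vehicle alike in the labels, and untreated is used throughout. All groups grew in DMEM/F12 with 10% fetal bovine serum, which itself carries copper and ceruloplasmin protein. Each line is a single cancer line, so differences between the lines are differences between these cultures.

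Copper is an enzyme cofactor that is toxic when free, and cells pass it from protein to protein. SLC31A1, also known as CTR1, takes up reduced copper at the plasma membrane. Inside the cell ATOX1 carries copper to the ATPases ATP7A and ATP7B, which load copper enzymes in the secretory pathway and, when copper is in excess, move towards the cell surface to export it. CCS inserts copper into the superoxide dismutase SOD1. Much of this control is known to act on the location and stability of the proteins, which RNA sequencing does not measure.

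Libraries held between 14050275 and 25057003 counts, and Ishikawa control 2 was the deepest. Epithelial markers were present in every library, with the 8 genes summing to between 2600 and 2720 TPM in copper-treated Ishikawa cells, 3730 and 4220 TPM in the untreated ones, 6090 and 6170 TPM in copper-treated KLE cells and 5290 and 5600 TPM in untreated ones. TPM is an abundance per transcript length and per library total, so it can be compared between genes. The hormone receptors ESR1 and PGR, typical of endometrial epithelium, summed to at most 0.576 TPM in any library. In a list of 5 leukocyte markers the sum was 8.23 to 11.9 TPM with copper and 7.01 to 7.98 TPM without it in Ishikawa cells, and 28.1 to 36.1 TPM with copper and 18.7 to 22.9 TPM without it in KLE cells. The 6 stromal markers summed to 16.0 to 36.2 TPM with copper and 6.77 to 28.2 TPM without it in Ishikawa cells, with the lowest sum in control 2, and to 13.5 to 29.9 TPM with copper and 22.5 to 48.2 TPM without it in KLE cells. The 3 hepatocyte markers summed to at most 1.39 TPM, with TTR at 0 throughout. The 3 endothelial markers summed to 2.34 to 3.56 TPM with copper and 1.31 to 2.01 TPM without it in Ishikawa cells, and to 1.60 to 2.66 TPM with copper and 2.42 to 3.53 TPM without it in KLE cells. The part of these differences in the results below was not tested. MT2A, a metal-binding metallothionein that copper and zinc induce, averaged 3980 TPM with copper and 66.6 TPM without it in Ishikawa cells, and 14700 TPM with copper and 3600 TPM without it in KLE cells (means, n = 3 each).

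The promoters of SLC31A1, ATP7A, ATP7B and ATOX1 are shown. Metal response elements are marked because metallothionein promoters carry them, as sites of the metal-responsive factor MTF1. GC boxes are marked because SP1, which binds them, is known to drive SLC31A1. Each line gives the 250 bases before the RefSeq start, 5′ to 3′ on the gene's strand, in build GRCh38.p14. Capitals mark the core letters of the metal response element, TGCACNC or TGCGCNC, and of the GC box, GGGCGG, on either strand. RefSeq's table held a promoter for 7 of the 10 genes and none for SLC31A2, SOD1 or CP. ATP7B and COMMD1 have 3 starts each, of which 1 was used.
SLC31A1, chr9:113221294-113221543, plus strand: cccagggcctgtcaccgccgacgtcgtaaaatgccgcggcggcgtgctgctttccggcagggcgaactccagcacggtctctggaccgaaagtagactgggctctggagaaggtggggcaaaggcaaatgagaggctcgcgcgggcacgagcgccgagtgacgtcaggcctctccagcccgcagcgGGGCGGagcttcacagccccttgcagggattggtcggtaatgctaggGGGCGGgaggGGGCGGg
ATP7A, chrX:77910443-77910692, plus strand: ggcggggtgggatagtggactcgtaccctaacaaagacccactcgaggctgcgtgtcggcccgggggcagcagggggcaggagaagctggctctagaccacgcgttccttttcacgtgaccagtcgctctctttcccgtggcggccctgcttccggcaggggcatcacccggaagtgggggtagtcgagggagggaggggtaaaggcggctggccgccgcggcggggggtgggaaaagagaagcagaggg
ATP7B, chr13:52012133-52012382, minus strand: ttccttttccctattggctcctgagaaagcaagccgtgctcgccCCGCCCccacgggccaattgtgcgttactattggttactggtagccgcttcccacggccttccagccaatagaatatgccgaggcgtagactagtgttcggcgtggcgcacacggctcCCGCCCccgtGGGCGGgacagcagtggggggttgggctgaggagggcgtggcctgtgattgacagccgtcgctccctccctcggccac
ATOX1, chr5:151758632-151758881, minus strand: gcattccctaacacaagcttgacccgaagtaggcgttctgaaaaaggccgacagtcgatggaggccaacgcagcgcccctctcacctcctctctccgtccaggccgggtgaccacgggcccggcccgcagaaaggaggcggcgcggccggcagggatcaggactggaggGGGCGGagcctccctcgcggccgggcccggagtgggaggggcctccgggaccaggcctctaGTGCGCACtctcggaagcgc
The SLC31A1 window held 3 GC boxes, whose first bases lay at −64, −17 and −7 from the start, and no metal response letters. The ATP7B window also held 3 GC boxes, at −206, −88 and −78, and the ATP7A window held neither motif. In the ATOX1 window 2 overlapping matches to the metal response letters began at −20 and −19, beside 1 GC box at −81. Of all 27305 promoters of this length, 24.6% held the metal response letters and 42.1% held the GC box. Among the 7 genes, the metal response letters occurred in ATOX1, CCS and COMMD1, which is 3 of 7. The CUTC window, not shown, held neither motif. The bases after the COMMD1 start used were not found in a GENCODE transcript of that gene. A match of letters is a description and not a binding site, and a window without one says nothing of the factor.

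The 10 genes spanned a wide range of level. SOD1 was the highest in every group, at 750 ± 23.2 TPM in copper-treated Ishikawa cells, 628 ± 30.8 TPM in the untreated ones, 643 ± 4.76 TPM in copper-treated KLE cells and 593 ± 6.79 TPM in the untreated ones (mean ± SD, n = 3 each). It alone made up between 69.4 and 77.6% of the summed TPM of the 10 genes. ATOX1 came next in all 4 groups, followed by SLC31A1. The exporters stood far lower than the importer SLC31A1, at 10.4 ± 0.561 TPM for ATP7B and 7.39 ± 0.245 TPM for ATP7A in copper-treated Ishikawa cells. CCS averaged 6.12 TPM with copper and 6.10 TPM without it in Ishikawa cells, and 6.03 TPM with copper and 7.16 TPM without it in KLE cells. SLC31A2 was lowest or next to lowest, at 0.841 to 1.96 TPM on average. CP was the gene with the widest span between groups, with a mean of 0.631 ± 0.124 TPM in copper-treated KLE cells and 8.07 ± 0.0719 TPM in untreated Ishikawa cells.

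**Figure D1:**
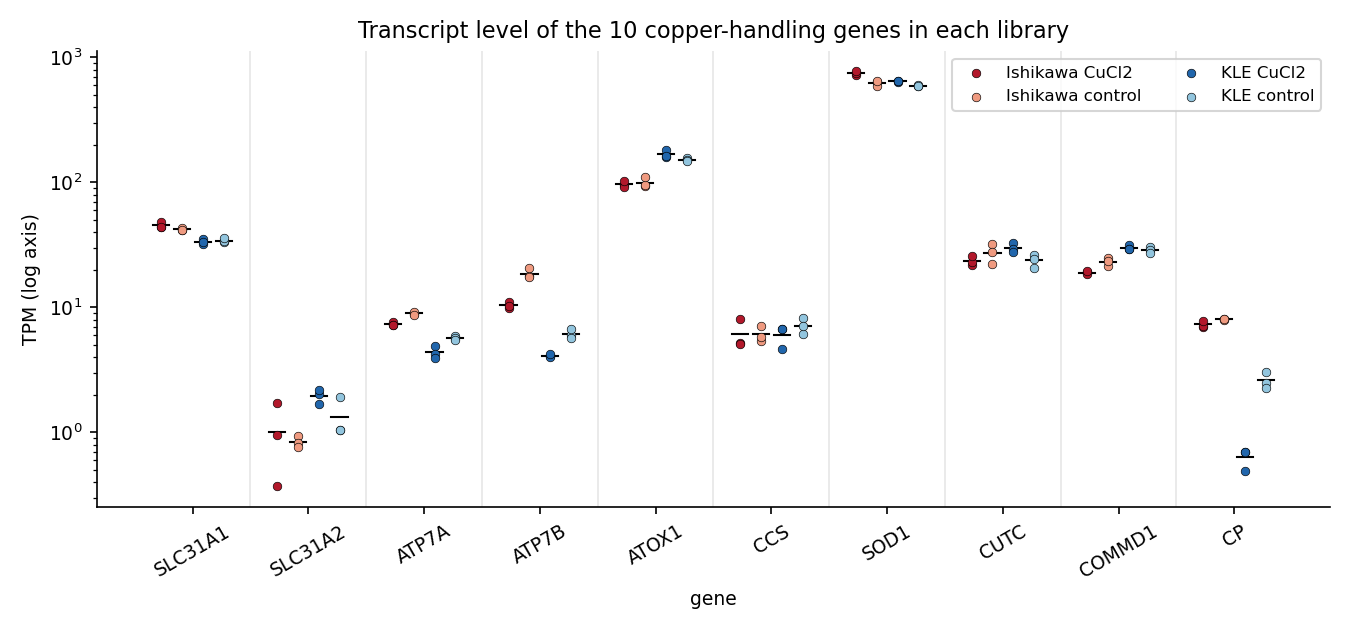
TPM of the 10 genes in each of the 12 libraries, on a log axis; points are libraries, bars are means of 3, and colours are the 4 groups. SOD1 lies above all other genes, ATP7B lies lower with copper in both lines, and CP lies lowest in copper-treated KLE cells.

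The first question was which of these genes changed with copper in each line. In Ishikawa cells SLC31A1 and SOD1 rose, ATP7B fell, and the other 7 genes did not pass the test. In KLE cells ATOX1, SOD1 and CUTC rose, ATP7A, ATP7B and CP fell, and 4 genes did not pass. A call is an adjusted p under 0.05 in edgeR's quasi-likelihood test with Benjamini-Hochberg adjustment over all genes tested. Copper changed much of the transcriptome, which sets the background for these counts. In Ishikawa cells 33.8% of 13359 genes were called higher and 35.3% lower, against 2 and 1 of the 10 members. In KLE cells 25.6% of 13031 genes were called higher and 25.2% lower, against 3 and 3 of the 10. These are 3330 and 3287 genes, in place of which upper-quartile factors gave 2685 and 3943 and library totals 2859 and 3735. The members' share of calls was thus near the background in KLE cells and below it in Ishikawa cells, and all 10 passed the filter on low counts. The median log2 fold change of the members was 0.086 in Ishikawa cells and 0.051 in KLE cells, beside −0.013 and −0.002 for all genes. With library totals as the only scaling the median of all genes in Ishikawa cells was −0.167, and the calls there were 3370 higher and 6068 lower in place of 4514 and 4714; with limma on log2(TPM + 1) they were 2883 and 5489, around a median of −0.166. With library totals SLC31A1 was at 0.14, SOD1 at 0.29 and ATP7B at −0.78, and all 3 kept their calls. In bulk RNA, fewer cells of one kind and less RNA per cell cannot be told apart.

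**Figure D2:**
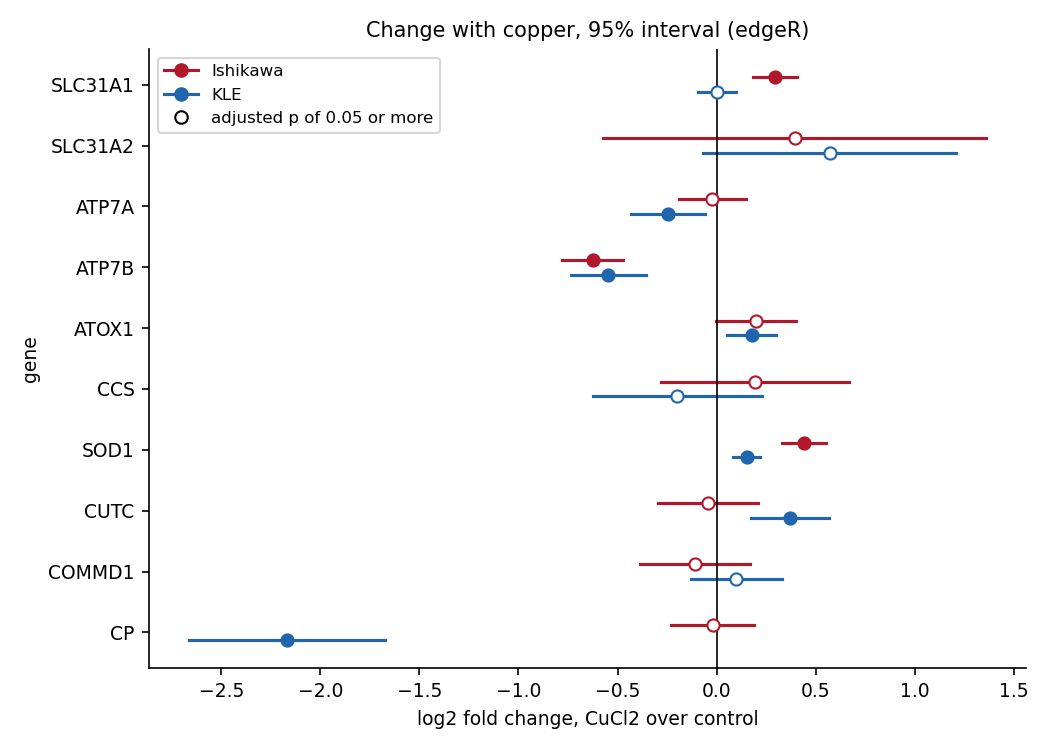
Log2 fold change with copper of each gene in Ishikawa and KLE cells, copper-treated over untreated, with 95% intervals from edgeR; filled points passed an adjusted p of 0.05. ATP7B lies below 0 in both lines and SOD1 above 0 in both, while CP lies far below 0 in KLE cells and at −0.02 in Ishikawa cells.

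Of the importers, SLC31A1 (ENSG00000136868, GRCh38 chromosome 9, 113221562 to 113264492, plus strand) rose modestly in Ishikawa cells and did not pass the test in KLE cells. Its scaled counts were 110.6, 116.8 and 108.8 CPM in copper-treated Ishikawa cells, against 95.9, 94.6 and 95.4 CPM in untreated ones. CPM are counts relative to library size, scaled with TMM factors over all 12 libraries. The log2 fold changes with copper come from fits of 6 libraries with their own factors, so they need not match the CPM. In Ishikawa cells the median of all genes was −0.013 in the fit of 6 libraries and −0.067 in a fit of all 12. For SLC31A1 every treated Ishikawa library lay above every untreated one. In the fit of the 6 Ishikawa libraries its log2 fold change was 0.29 ± 0.05 (SE), a 1.23-fold rise (adjusted p = 0.000135, edgeR quasi-likelihood test, Benjamini-Hochberg). On the authors' TPM, where limma was run on log2(TPM + 1), the value was 0.11 and the call was lost (adjusted p = 0.176). In KLE cells SLC31A1 stood at 84.0, 77.7 and 80.2 CPM with copper, against 79.5, 79.6 and 82.5 CPM without it. These groups overlapped, and the 95% interval of the log2 change was −0.09 to 0.10, which leaves out a rise of the Ishikawa size. SLC31A1 shares 8658 bases with CDC26 on the opposite strand, and strand use in the counting is not given in the sources used here. Shared bases, here and below, are overlaps of whole gene spans with introns included, not of transcripts. CDC26 rose by 0.45 in Ishikawa and by 0.36 in KLE cells on the log2 scale. SLC31A2, also known as CTR2, a relative found in endosomes and lysosomes, was too low for a firm statement. It had 6, 14 and 21 counts in copper-treated Ishikawa cells, against 12, 17 and 11 in untreated ones, and 28, 29 and 21 counts in copper-treated KLE cells, against 13, 15 and 25 in untreated ones. Its interval was −0.57 to 1.36 in Ishikawa cells and −0.07 to 1.21 in KLE cells, so neither a rise nor its absence could be shown at this depth.

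Of the exporters, ATP7B (ENSG00000123191, GRCh38 chromosome 13, 51930436 to 52012125, minus strand) fell with copper in both lines, and it was the only one of the 10 genes called lower in both. It is the ATPase whose loss causes Wilson disease. In Ishikawa cells it stood at 32.5, 32.9 and 33.0 CPM with copper, against 50.3, 56.7 and 50.5 CPM without it. In KLE cells it stood at 12.1, 12.7 and 12.5 CPM with copper, against 18.2, 17.5 and 18.9 CPM without it. The groups did not overlap in either line, and the treated libraries lay close together. The log2 fold change was −0.63 ± 0.07 (SE) in Ishikawa cells, which is 1.54-fold lower, and −0.55 ± 0.09 in KLE cells, which is 1.46-fold lower (adjusted p = 2.14e-06 and 4.09e-06, edgeR quasi-likelihood test, Benjamini-Hochberg). The difference between the 2 responses was 0.14, with an interval of −0.09 to 0.36, and did not pass the test. Without Ishikawa control 2, the highest of the untreated libraries, the Ishikawa value was −0.57. No other gene of the table shares bases with ATP7B or SOD1, while SLC31A2, ATOX1, CCS and COMMD1 each share some with a gene on the opposite strand.

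ATP7A (ENSG00000165240, GRCh38 chromosome X, 77910656 to 78050395, plus strand) is the more widely expressed exporter, whose loss causes Menkes disease. It fell in KLE cells and did not pass the test in Ishikawa cells. In Ishikawa cells it stood at 26.6, 24.6 and 26.0 CPM with copper, against 28.5, 26.6 and 26.6 CPM without it. In KLE cells it stood at 15, 13.7 and 13.9 CPM with copper, against 16.8, 17.2 and 16.6 CPM without it. The KLE groups were apart and the Ishikawa groups overlapped. ATP7A fell by 0.25 on the log2 scale in KLE cells (SE 0.09; adjusted p = 0.0237, edgeR quasi-likelihood test, Benjamini-Hochberg). This call was lost without KLE control 2 (−0.24, adjusted p = 0.0653), CuCl2 2 (−0.22, 0.0752) or CuCl2 3 (−0.23, 0.0638), and with DESeq2 (−0.25, 0.0895). In Ishikawa cells the value was −0.02, with an interval of −0.19 to 0.15, but on log2(TPM + 1) it was −0.25 with an adjusted p of 0.0369 in limma. The gene span of ATP7A, introns included, overlaps that of PGK1 on the same strand over 139657 bases. It also shares 765 bases with PGAM4 on the opposite strand, for which no change is given here. PGK1 had log2 fold changes of −0.24 in Ishikawa cells and 0.13 in KLE cells.

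As a description of the balance between the exporters, the ratio of ATP7B to ATP7A in TPM was 1.41 ± 0.114 in copper-treated and 2.07 ± 0.125 in untreated Ishikawa cells, and 0.951 ± 0.123 in copper-treated and 1.07 ± 0.118 in untreated KLE cells (mean ± SD, n = 3 each). The ratio of SLC31A1 to the sum of both exporters was 2.56 ± 0.0646 in copper-treated and 1.53 ± 0.0728 in untreated Ishikawa cells. In KLE cells it was 3.94 ± 0.0704 with copper and 2.89 ± 0.1 without it. Importer transcripts thus outnumbered exporter transcripts in every library, and by more in the copper-treated ones of each line. The ratio of ATOX1 to the sum of both exporters was 5.45 ± 0.453 with copper and 3.63 ± 0.501 without it in Ishikawa cells, and 19.8 ± 0.279 with copper and 12.9 ± 0.563 without it in KLE cells.

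Of the chaperones, ATOX1 (ENSG00000177556, GRCh38 chromosome 5, 151742316 to 151772532, minus strand), which feeds both exporters, rose slightly in KLE cells and did not pass the test in Ishikawa cells. It stood at 26.0, 24.5 and 28.0 CPM in copper-treated Ishikawa cells, against 22.7, 21.8 and 26.8 CPM in untreated ones. In KLE cells it stood at 45.2, 40.8 and 41.5 CPM with copper, against 39.4, 37.7 and 36.0 CPM without it. The KLE groups did not overlap, while the Ishikawa groups did. The log2 fold change was 0.18 ± 0.06 (SE) in KLE cells (adjusted p = 0.0170) and 0.20 ± 0.10 in Ishikawa cells (adjusted p = 0.0746, edgeR quasi-likelihood test, Benjamini-Hochberg). Neither side of the threshold was firm. In KLE cells 8 of 17 alternatives lost the call, among them those without control 3 (0.14, 0.0983) and without CuCl2 1 (0.13, 0.124). In Ishikawa cells 2 of 17 gained it, without control 3 (0.28, 0.0133) and with a replicate block (0.20, 0.0415), and on log2(TPM + 1) the value was −0.04. CCS, the chaperone of SOD1, had 72, 49 and 39 counts in copper-treated Ishikawa cells, against 42, 75 and 59 in untreated ones, and 39, 54 and 54 counts in copper-treated KLE cells, against 47, 71 and 54 in untreated ones. Its groups overlapped in both lines, with intervals of −0.28 to 0.67 in Ishikawa cells and −0.63 to 0.23 in KLE cells.

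SOD1 (ENSG00000142168, GRCh38 chromosome 21, 31659622 to 31668931, plus strand), the cytosolic copper and zinc enzyme that removes superoxide, rose in both lines. It stood at 340.0, 343.6 and 356.6 CPM in copper-treated Ishikawa cells, against 275.7, 243.9 and 279.1 CPM in untreated ones. In KLE cells it stood at 285.2, 292.1 and 294.9 CPM with copper, against 263.9, 263.8 and 258.4 CPM without it. The treated libraries lay above the untreated ones in both lines. The log2 fold change was 0.44 ± 0.05 (SE) in Ishikawa cells, a 1.36-fold rise, and 0.15 ± 0.03 in KLE cells, a 1.11-fold rise (adjusted p = 2.97e-06 and 0.000192, edgeR quasi-likelihood test, Benjamini-Hochberg). Without Ishikawa control 2, the lowest untreated library, the Ishikawa value was 0.37. SOD2, the manganese enzyme of mitochondria, which uses no copper, had log2 fold changes of −0.30 in Ishikawa and −0.23 in KLE cells, both called. The ratio of SOD1 to SOD2 in TPM was accordingly 5.12 ± 0.0925 with copper and 3.04 ± 0.185 without it in Ishikawa cells, and 4.81 ± 0.201 with copper and 3.77 ± 0.0788 without it in KLE cells (mean ± SD, n = 3 each).

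CUTC (ENSG00000119929, GRCh38 chromosome 10, 99702558 to 99756134, plus strand), a cytosolic copper-binding protein named after a bacterial gene, rose in KLE cells. It stood there at 19.2, 17.6 and 16.5 CPM with copper, against 15.5, 13.8 and 12.0 CPM without it, with no overlap. It rose by 0.37 ± 0.10 (log2 ± SE), a 1.29-fold rise (adjusted p = 0.00158, edgeR quasi-likelihood test, Benjamini-Hochberg). In Ishikawa cells it stood at 13.8, 13.8 and 15.4 CPM with copper, against 12.7, 17.2 and 15.7 CPM without it. The Ishikawa groups overlapped, the interval was −0.29 to 0.21, and the value was 0.05 without Ishikawa control 2. CUTC shares bases with COX15 on the opposite strand, whose log2 fold change was 0.05 in Ishikawa and 0.04 in KLE cells, and with ENTPD7 on the same strand, at 0.28 in Ishikawa and −0.16 in KLE cells. Its largest overlap, 29555 bases, is with AL133353.2 on the opposite strand, for which no change is given here. COMMD1, which binds ATP7B and belongs to a complex that recycles copper ATPases from endosomes, did not pass the test in either line. It stood at 6.98, 6.52 and 7.03 CPM in copper-treated Ishikawa cells, against 7.11, 7.95 and 7.90 CPM in untreated ones. In KLE cells it stood at 11.0, 10.4 and 10.3 CPM with copper, against 10.6, 9.89 and 9.20 CPM without it. The Ishikawa libraries did not overlap in CPM, yet the interval was −0.39 to 0.17 in the fit of 6 libraries. On log2(TPM + 1) COMMD1 was called at −0.27 (limma, adjusted p = 0.0169).

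CP (ENSG00000047457, GRCh38 chromosome 3, 149162410 to 149222055, minus strand) encodes ceruloplasmin, a secreted ferroxidase that carries copper in blood and receives it in the secretory pathway. It fell strongly in KLE cells and not by the test in Ishikawa cells. It stood at 1.06, 1.06 and 0.963 CPM in copper-treated KLE cells, against 5.00, 4.73 and 4.25 CPM in untreated ones. These are 17, 16 and 14 counts with copper, against 71, 78 and 66 without it. The KLE groups lay far apart, both at a low level. CP had a log2 fold change of −2.17 ± 0.24 (SE) in KLE cells, which is 4.49-fold lower (adjusted p = 7.35e-10, edgeR quasi-likelihood test, Benjamini-Hochberg). On log2(TPM + 1) it was −1.14, a scale that understates changes of low genes. In Ishikawa cells CP stood at 13.8, 13.3 and 15.4 CPM with copper, against 14.8, 14.6 and 15.4 CPM without it. The Ishikawa groups overlapped, and the interval was −0.23 to 0.19. CP shares 11323 bases with HPS3 on the opposite strand, and its expected counts were not whole in 12 of 12 libraries, as happens where reads fit more than 1 gene. The same held for SLC31A2 in 12 libraries and COMMD1 in 10, and for at most 2 libraries in each of the other 7 genes. HPS3 had log2 fold changes of −0.83 in Ishikawa and −0.31 in KLE cells, beside −0.02 and −2.17 for CP in the same lines. The part of shared reads in these values was not tested.

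**Figure D3:**
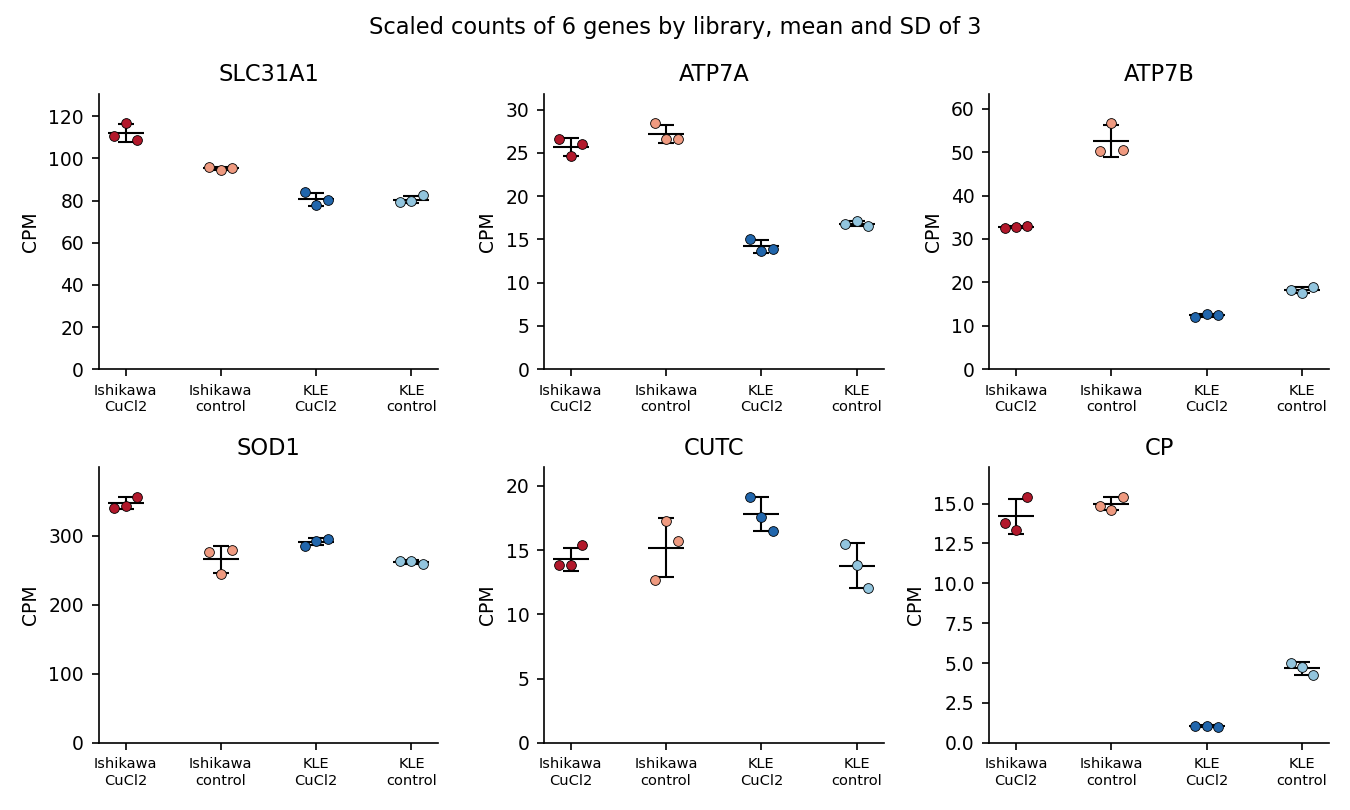
CPM of SLC31A1, ATP7A, ATP7B, SOD1, CUTC and CP in each library, with mean and SD of 3; all axes start at 0. The copper-treated KLE libraries of CP sit between 0.963 and 1.06 CPM, below the untreated KLE libraries at 4.25 to 5.00 CPM and all Ishikawa libraries.

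Whether the lines differed in their response was tested as a contrast of all 12 libraries, KLE response minus Ishikawa response. CUTC was higher in that difference, and SLC31A1, SOD1 and CP were lower, which is 1 and 3 of the 10 members. Among 13663 genes 24.6% were called higher and 20.8% lower. These are 3358 and 2848 genes, in place of which limma on log2(TPM + 1) gave 3488 and 1843. The median of all genes in this contrast was 0.034, and 0.101 with library totals. This fit scales all 12 libraries together, so its differences need not equal those between the values fitted within each line. The differences were −2.09 ± 0.21 for CP, 0.47 ± 0.16 for CUTC, −0.23 ± 0.07 for SLC31A1 and −0.23 ± 0.06 for SOD1 (log2 ± SE). Their adjusted p were 3.74e-08, 0.0189, 0.00644 and 0.00396 (edgeR quasi-likelihood test, Benjamini-Hochberg). CP kept its call in all 22 alternatives. For CUTC the call was lost in 6 of 22, without Ishikawa control 2 (0.37, adjusted p = 0.0515), Ishikawa CuCl2 1 (0.40, 0.0723), Ishikawa CuCl2 2 (0.40, 0.0717), KLE control 3 (0.39, 0.0652) or KLE CuCl2 1 (0.42, 0.0565), and with DESeq2 (0.43, 0.055). SLC31A1 and SOD1 lost it on log2(TPM + 1), each at −0.14. With library totals both kept it, each at −0.17. The other 6 members did not pass, with intervals of −0.40 to 0.06 for ATP7A and −0.20 to 0.27 for ATOX1.

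The second axis of the design was the difference between the lines. In untreated cells, KLE against Ishikawa, ATOX1 and COMMD1 were higher in KLE, and SLC31A1, ATP7A, ATP7B and CP were lower, so 2 members were called higher and 4 lower. Over all genes 24.5% were called higher and 25.6% lower. The log2 fold change, KLE over Ishikawa, was −1.53 ± 0.07 for ATP7B (2.89-fold lower), −1.68 ± 0.12 for CP (3.21-fold lower), −0.69 ± 0.08 for ATP7A and −0.24 ± 0.05 for SLC31A1, beside 0.67 ± 0.08 for ATOX1 and 0.36 ± 0.11 for COMMD1 (log2 ± SE). The adjusted p ranged from 1.02e-14 for ATP7B to 0.00926 for COMMD1 (edgeR quasi-likelihood test, Benjamini-Hochberg). SOD1 had a difference of −0.02 with an interval of −0.11 to 0.07, the narrowest of the 10. Both exporters were thus lower in KLE cells, while the chaperone that supplies them was higher.

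With both lines in copper, KLE against Ishikawa, 4 members were called higher and 5 lower, beside 33.3% and 32.3% of all genes. ATP7B (−1.40 ± 0.08), ATP7A (−0.86 ± 0.08), CP (−3.77 ± 0.15), SLC31A1 (−0.48 ± 0.05) and SOD1 (−0.25 ± 0.04) were lower in KLE cells, and ATOX1 (0.71 ± 0.08), COMMD1 (0.63 ± 0.12), CUTC (0.31 ± 0.11) and SLC31A2 (0.95 ± 0.39) were higher (log2 ± SE, edgeR). CP stood 13.7-fold lower in copper-treated KLE cells than in copper-treated Ishikawa cells. The call of SLC31A2 (adjusted p = 0.0364, edgeR) was lost without Ishikawa CuCl2 1 (0.51) or 2 (0.85), without KLE CuCl2 1 (0.93) or 2 (0.86), and with DESeq2. That of CUTC (adjusted p = 0.0185, edgeR) was lost without Ishikawa CuCl2 1 (0.24) or 2 (0.24), without KLE CuCl2 1 (0.26), and with DESeq2. CCS was not called in either comparison of the lines. By mean CPM, ATP7A, ATP7B and CP ordered the 4 groups with both Ishikawa groups above both KLE groups, and copper-treated KLE cells last. Their untreated Ishikawa libraries came first on average, copper-treated Ishikawa cells next and untreated KLE cells after them. The step between copper-treated Ishikawa and untreated KLE cells was not tested, and for ATP7A and CP the 2 Ishikawa groups overlapped.

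**Figure D4:**
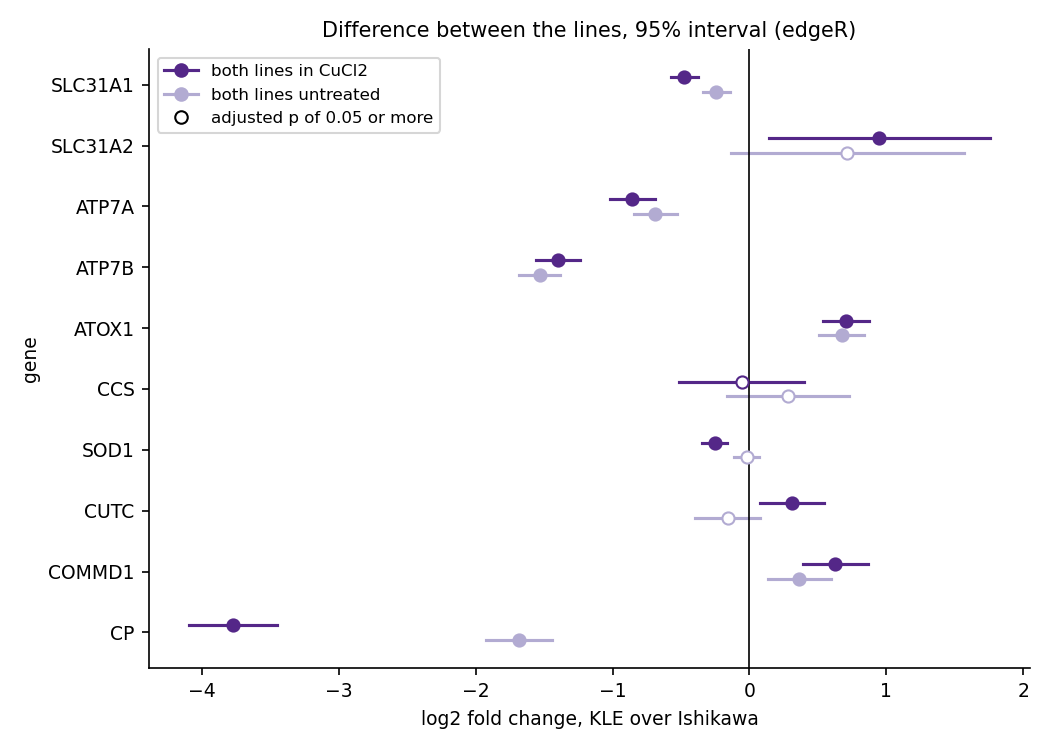
Log2 fold change of KLE over Ishikawa cells for each gene, with both lines in CuCl2 and with both untreated, with 95% intervals from edgeR; filled points passed an adjusted p of 0.05. ATP7A, ATP7B and CP lie below 0 and ATOX1 and COMMD1 above 0 in both settings.

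Other genes of copper handling give the setting of these changes. Their counts are to be read against the shares of all genes, 33.8% called higher and 35.3% lower in Ishikawa cells and 25.6% higher and 25.2% lower in KLE cells. Of 11 metallothioneins 4 were tested and 7 did not pass the filter on low counts. MT1G in both lines and MT1F in Ishikawa cells passed it through the copper-treated libraries, where they are high, so no count over this list is given. MT1X and MT2A, which had at least 84 counts in every library, rose by 5.49 and 6.13 in Ishikawa cells and by 3.29 and 2.06 in KLE cells on the log2 scale. Of 5 metalloreductases, which reduce metals before uptake, 4 fell in Ishikawa cells and none rose, and in KLE cells 3 fell and STEAP1 rose by 0.51 on the log2 scale. STEAP2 and STEAP3 had values of −1.37 and −1.07 in Ishikawa cells. Of 11 genes that deliver copper to cytochrome oxidase, 3 rose and 4 fell in Ishikawa cells, near the shares of all genes, and 2 rose and 2 fell in KLE cells. SLC25A3, the mitochondrial carrier of phosphate and copper, rose by 0.40 and 0.18 in Ishikawa and KLE cells. Of 11 tested secretory copper enzymes, which ATP7A and ATP7B load, 4 rose and 4 fell in Ishikawa cells, near the shares of all genes, and 1 rose and 3 fell in KLE cells. MOXD1, a relative of dopamine beta-hydroxylase, fell by 1.95 in Ishikawa cells and by 1.23 in KLE cells, and the collagen cross-linking enzyme LOX fell by 0.51 and 0.88 in the same lines. In the COMMD and CCC complex list of 14 genes, 5 rose and 3 fell in Ishikawa cells, and 3 rose and none fell in KLE cells.

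Partners of the copper proteins and factors tied to them formed a list of 6. All 6 rose in Ishikawa cells, where 33.8% of all genes did, and in KLE cells, where 25.6% did, 4 rose, 1 fell and 1 was not called. The list was chosen with earlier results of these data known, so these counts are a description only. CLU, an extracellular chaperone that binds the copper ATPases, stood at 129.1, 144.3 and 133.1 CPM in copper-treated Ishikawa cells, against 3.43, 1.68 and 3.20 CPM in untreated ones. It stood at 19.2, 18.5 and 19.95 CPM in copper-treated KLE cells, against 5.49, 7.16 and 6.88 CPM in untreated ones. The CLU groups lay apart in both lines, by a log2 fold change of 5.76 in Ishikawa and 1.55 in KLE cells. GLRX, a glutaredoxin that acts on the metal-binding cysteines of the exporters, rose by 0.47 and 0.69 in Ishikawa and KLE cells. DCTN4, a dynactin subunit that binds ATP7B, rose by 1.13 and 0.28. MTF1 rose by 1.07 and 0.32, XIAP, which marks COMMD1 and CCS with ubiquitin, had values of 0.30 (called) and 0.04 (not called), and SP1 had values of 0.12 and −0.11, both called, in Ishikawa and KLE cells. In Ishikawa cells SP1 kept its call in 7 of 17 alternatives, with values from −0.05 to 0.14, GLRX in 13 and XIAP in 15, with values from 0.03 to 0.32. In KLE cells SP1 kept it in 11 of 17.

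**Figure D5:**
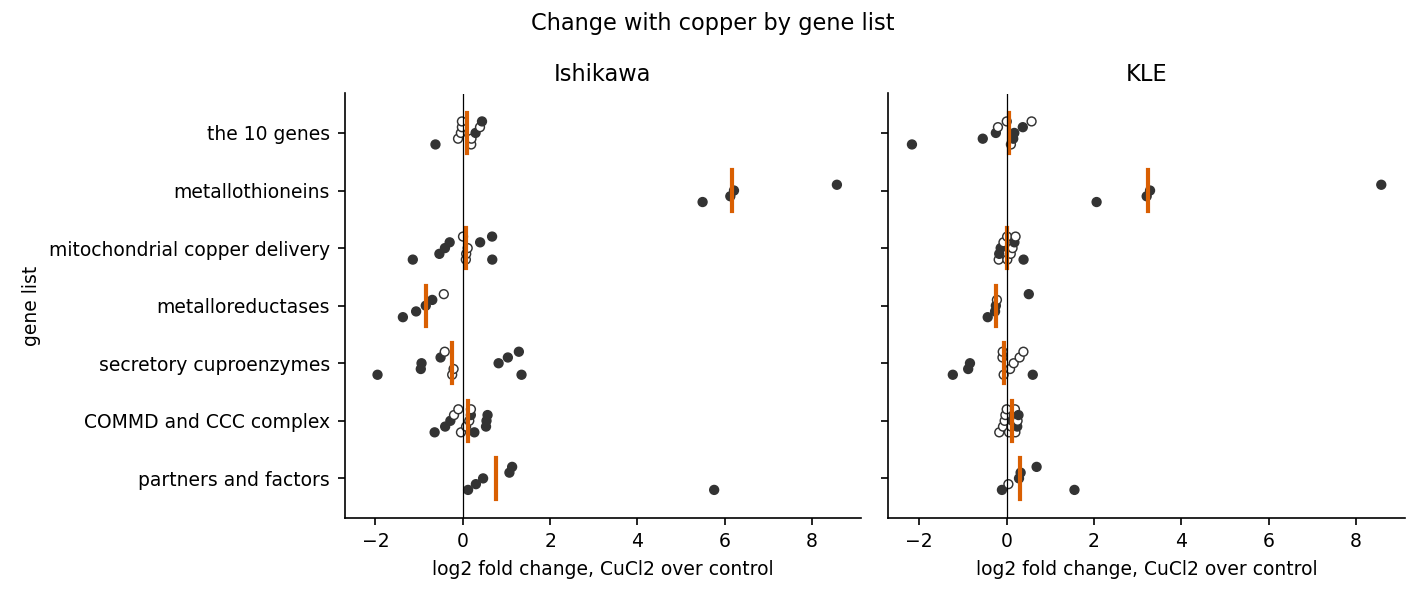
Log2 fold change with copper of the tested genes of each list in Ishikawa and KLE cells; points are genes, filled where the adjusted p was under 0.05, and orange bars are list medians. Only the 4 tested metallothioneins are drawn. Of these, MT1G in both lines and MT1F in Ishikawa cells passed the filter through the copper-treated libraries. The median of that list is therefore not read as a result. MT1X and MT2A lie far above 0 in both lines. The 10 genes lie around 0, with CP at −2.17 in KLE cells as their lowest point.

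Over the 12 libraries, the named gene whose log2 CPM tracked ATP7B most closely was CALCRL, with a Pearson r of 0.997. MSX1 and ADGRL1 followed. BCAT1 was most like CP (r = 0.994), RASSF9 most like ATP7A (0.992), RMND5A most like SLC31A1 (0.988), MMGT1 most like SOD1 (0.986), MYZAP most like COMMD1 (0.983) and LHFPL6 most like ATOX1 (0.982). The closest genes were less alike for SLC31A2 (DEDD, 0.882), CUTC (SMIM20, 0.855) and CCS (ZNF157, 0.731). Genes without a symbol and those with clone (AC, AL or AP), LINC or LOC names were left out of the 13683 genes before ranking. These values are the highest of the rest, over libraries that share their line and treatment. They are given as a description.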

How the data were processed

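RNA was extracted with TRIzol, enriched with oligo(dT) and sequenced from both ends, per the labels' protocols. HISAT2 2.1.0, Bowtie2 2.2.8, RSEM, fastp 0.18.0, R 4.2.2 and DESeq2 and the build GRCh38.p14 are named, per the submitters' processing notes. The role of each tool, the strand setting and the annotation's release were not given in the sources used here. Tables as deposited hold whole counts per gene, which are the authors' expected counts rounded, and TPM. The authors' expected counts were read only to see where they were not whole. TPM as deposited by the authors were used for levels and ratios. Gene coordinates are from GENCODE release 29 of GRCh38, matched by Ensembl ID, and promoters from RefSeq.

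Whole counts were tested with edgeR 4.0.16 in R 4.3.3 (TMM factors, filterByExpr with a minimum count of 10, a robust quasi-likelihood fit and two-sided tests, adjusted by Benjamini-Hochberg over all genes tested). Each copper response was fitted on the 6 libraries of its line, and the comparisons of lines and responses on all 12. The SE is the absolute log2 change over the square root of F, and intervals are 95%. The alternatives tried were scaling by library totals, RLE or upper-quartile factors, other count filters, DESeq2 1.42.0, limma-voom and limma 3.58.1 on log2(TPM + 1) or log2(TPM + 0.1), a replicate block, 1 fit of all 12 libraries, and each library left out. The fits were also run on simulated counts in which few genes changed, up and down in equal numbers. Far more genes were called in these data, so the simulation could not test the scaling used here.

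The 10 genes and all lists were chosen with earlier results of these data known. Text names all 10, up to 3 genes of each other copper list by smallest adjusted p, and all partners. It also names the most correlated of the genes ranked for each of the 10, and for ATP7B MSX1 and ADGRL1 besides. SOD2, MT2A and overlapping neighbours serve as context.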

Additional observations from a re-analysis of the deposited data

Results flagged for a closer look

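For 4 of the 10 genes the copper response of KLE cells differed from that of Ishikawa cells by the test of the difference itself (edgeR quasi-likelihood test over 12 libraries, Benjamini-Hochberg). The KLE response minus the Ishikawa response was −2.09 for CP, which fell in KLE cells and was not called in Ishikawa cells. It was 0.47 for CUTC, called higher in KLE cells only, −0.23 for SLC31A1, called higher in Ishikawa cells only, and −0.23 for SOD1, called higher in both lines (log2). The values for CUTC, SLC31A1 and SOD1 lost their call under some alternatives, as given above, and that for CP under none of 22.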

How the results depend on the processing

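Of 877 values of the 10 genes under an alternative, 817 were counted as keeping their direction and side of the threshold. Of the rest, 33 lost a call, 8 gained one and 19 changed sign. Signs were read after rounding to 2 decimals, and a value that rounded to 0 was not counted as a change. SLC31A1 in KLE cells, at 0.003 in the main fit, was thus counted as kept at −0.04 to 0.03. ATP7B and SOD1 in both lines, and CP and CUTC in KLE cells, kept their calls in all 17 alternatives. With limma on log2(TPM + 1) and on log2(TPM + 0.1), Ishikawa cells had 1 gene higher and 3 lower, CCS was at −0.01 and −0.02 and ATOX1 at −0.04 in both. The response difference then had 2 genes higher and 1 lower. With DESeq2 it had 0 higher, and ATOX1 was at −0.01, as with RLE factors, while the copper-treated lines had 2 higher. With CPM in place of TPM, the 4 groups kept their order of mean level for 6 of the 10 genes. The cause was not tested.

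Leaving out 1 library at a time gave these ranges. In Ishikawa cells they were −0.08 to 0.02 for CP, −0.16 to 0.05 for CUTC, −0.17 to 0.79 for SLC31A2, −0.05 to 0.01 for ATP7A and −0.04 to 0.30 for CCS. In the response difference 0 to 1 genes were higher, SLC31A2 ranged from −0.21 to 0.75 and ATOX1 from −0.06 to 0.10. SOD1 ranged from −0.08 to 0.01 between untreated lines. Between copper-treated lines 2 to 4 genes were higher, and CCS ranged from −0.20 to 0.13.

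The deviations of same-numbered libraries had r of 0.046, 0.172 and 0.0753 in Ishikawa cells and −0.0595, −0.0416 and −0.084 in KLE cells. The same-numbered values were thus all positive in Ishikawa cells and all negative in KLE cells. Libraries of different numbers had r of −0.154 to 0.0796 in Ishikawa cells and −0.0112 to 0.0675 in KLE cells. Ishikawa CuCl2 1 was closer to control 3 (0.0796) than to control 1. The labels do not say that a number pairs the libraries, and the numbers were not taken to do so. A replicate block gave 9355 called genes in Ishikawa and 6193 in KLE cells, in place of 9228 and 6617, ATP7B at −0.62 and −0.55, and among the 10 genes changed only the call of ATOX1 in Ishikawa cells. Depth limits SLC31A2, CCS and, in copper-treated KLE cells, CP.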
